A study of Mus musculus with 12 samples.

Results

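The genes described here make sterols and fatty acids or carry sterols out of the cell. The list has 35 member genes, and every probe set whose platform annotation gave a member as its single gene symbol was taken. A probe set is a group of short oligonucleotides on the array designed to read a transcript, and some probe sets can read more than 1. This rule found 80 of the 45037 probe sets, for 34 of the 35 genes; Acat2 had no such probe set. The rule used no measured value. By role, 15 genes with 36 probe sets belong to sterol synthesis, 6 genes with 12 probe sets to the control of the SREBP factors and to sterol transport, 9 genes with 25 probe sets to fatty acid synthesis, and 4 genes with 7 probe sets to LXR and efflux. Where a gene had several probe sets, the one with the highest mean over all arrays stands for it below.

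RNA was measured on 12 Affymetrix mouse arrays, 6 of mesenchymal stem cells (MSCs) cultured with hematopoietic stem cells (HSCs), here called co-culture, and 6 of MSCs cultured alone, here called MSC-only. Both groups held 3000 bone marrow MSCs per well, sorted as Sca-1 and PDGFR-α positive cells. The co-cultures also received 7000 HSCs, sorted for Sca-1 and c-Kit and against lineage markers, and the MSC-only wells received 0. The labels give male C57BL/6 mice aged 6 weeks for all samples, and RNA was taken on day 6 in both groups. The array methods do not state a sort of the cultured cells before RNA was taken, though co-cultured cells were sorted by EGFP for flow cytometry in the same study. The sources also do not say whether the arrayed co-cultures were direct or indirect, or which samples share a mouse, so p-values measure the spread between these samples, which may be technical. Signals are on a linear scale in arbitrary units, and levels are compared between arrays within 1 probe set, never between genes.

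Cells adjust their sterol supply through SREBP-2, the product of Srebf2. SCAP carries the SREBP precursors out of the endoplasmic reticulum when membrane sterol is low, and the INSIG proteins hold them back when it is high. Freed SREBP-2 turns on the enzymes from Hmgcs1 to Dhcr7 that build cholesterol from acetyl-CoA, and SREBP-1c, from Srebf1, turns on enzymes of fatty acid synthesis. The liver X receptors (LXRs) sense oxidised sterols. They turn on the exporters Abca1 and Abcg1, the ubiquitin ligase Mylip that limits sterol uptake, and Srebf1 itself. Macrophages take up much cholesterol and are known for exporting it through these transporters.

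The promoters of 6 members are printed in part because they hold the core letters of an SREBP site or the CCAAT box of NF-Y, a factor that is known to act beside SREBP. No LXR element was searched. RefSeq promoter windows (GRCm38.p6), of 250 bases before and 50 after a transcription start, were matched by symbol for 26 of the 34 genes. Sqle, Fdps, Fdft1, Stard4, Scd1, Scd2, Fads1 and Abcg1 had no entry. In the lines below, capitals mark the sterol response element core TCACNCCA and the CCAAT box that NF-Y binds, on either strand (ATTGG is CCAAT on the other strand). All windows end before the start.
Hmgcs1, chr13:119690163-119690233, + strand: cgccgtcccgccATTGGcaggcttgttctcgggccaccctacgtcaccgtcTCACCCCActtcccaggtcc
Msmo1, chr8:64733722-64733767, - strand: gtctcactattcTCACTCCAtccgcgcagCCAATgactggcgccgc
Srebf2, chr15:82147095-82147150, + strand: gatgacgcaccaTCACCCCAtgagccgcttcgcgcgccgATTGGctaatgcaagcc
Idi1, chr13:8885549-8885605, + strand: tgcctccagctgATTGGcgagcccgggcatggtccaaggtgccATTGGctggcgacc
Cyp51, chr5:4104710-4104738, - strand: cgctgtccgccaCCAATctggtcctgaga
Fasn, chr11:120824590-120824649, - strand: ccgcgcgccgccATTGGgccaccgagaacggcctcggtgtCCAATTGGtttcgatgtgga

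TCACNCCA stood in a window of 3 of the 26 members, Hmgcs1, Msmo1 and Srebf2, against 4.97% of all 27025 genes with an entry (4.36% of 32851 promoters), and each also held a CCAAT box nearby. A CCAAT box stood in a window of all 12 sterol synthesis genes with an entry. It stood in 41.1% of all genes with an entry and in 4 of 5 SREBP control and sterol transport genes. Of the other roles, 3 of 6 fatty acid synthesis genes (Acly, Acss2 and Fasn) and 1 of 3 LXR and efflux genes (Mylip) held it. Fasn held 3 matches, of which the last 2 overlap on opposite strands. The GC box GGGCGG stood in 11 of the 12 sterol synthesis genes, against 38.2% of all genes, and the E box CACGTG in 3, against 8.09%. Neither was particular to that role. The GC box stood in 5 of 5 SREBP control and sterol transport genes, 3 of 6 fatty acid synthesis genes and 2 of 3 LXR and efflux genes. The E box stood in 2 of 5, 0 of 6 and 1 of 3 in the same order. These are matches of letters, and no binding was measured.

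Several arrays stood apart from the rest or from their label. The label male was set against sex-linked genes. Xist, the RNA of the inactive X chromosome, read 13136 to 17840 in the 6 co-cultures, and read 21978 and 16810 in MSC-only 3 and MSC-only 4, against 60.5 to 118 in the other 4 MSC-only arrays. The Y-linked gene Eif2s3y read 1022 to 1331 in co-cultures 1, 2, 5 and 6, against 2604 to 2845 in MSC-only 1, 2, 5 and 6, and at most 13.6 in the arrays numbered 3 and 4 of both groups. Results are also given without those 4 arrays. In the 8 arrays that remain both genes separate the groups, with Xist at 13136 to 16604 in the co-cultures, so the sex or source of the cells and the culture cannot be told apart there. Over all arrays Xist was also uneven between the groups, being low in 4 MSC-only arrays and in no co-culture. Sex or source and culture are thus not fully separable in the full comparison either. Of the macrophage markers 13 of 13 were measured, and most had high signals in both groups. Marco did not, at 9 to 55.7 in co-cultures and 10.5 to 64.8 in MSC-only cultures. The summed signal of the 13 was 222614 to 284806 in co-cultures and 210882 to 284922 in MSC-only cultures. The brightest probe sets make up most of that sum. Ptprc, which encodes the CD45 that the sort excluded from MSCs, read 11519 to 12642 in co-cultures and 10425 to 13144 in MSC-only cultures. Of the markers used in the sort, Pdgfra read 407 to 1464 in co-cultures and 583 to 1162 in MSC-only cultures, and Ly6a (Sca-1) had no probe set with a single symbol. The 10 stromal markers measured summed to 15256 to 40072 in co-cultures and 17336 to 40740 in MSC-only cultures. In bulk RNA, fewer cells of a type and less RNA per cell cannot be told apart.

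The arrays also fell into 2 sets of 6 on the first principal component of the 44957 probe sets that are not members', which held 21.6% of the variance. Co-culture 1, 4 and 6 and MSC-only 2, 4 and 6 scored 0.21 to 0.34 (set I), and co-culture 2, 3 and 5 and MSC-only 1, 3 and 5 scored -0.34 to -0.24 (set II). Each set held 3 arrays of each group, so the sets do not coincide with the comparison of co-culture and MSC-only. The labels name no batch that corresponds to the sets. The highest signal on an array was 41549 to 52442 in set I and 48200 to 66712 in set II. These sets were drawn from the data after they were seen, so they are not groups of the study, and they bear on nearly every correlation below.

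**Figure D1:**
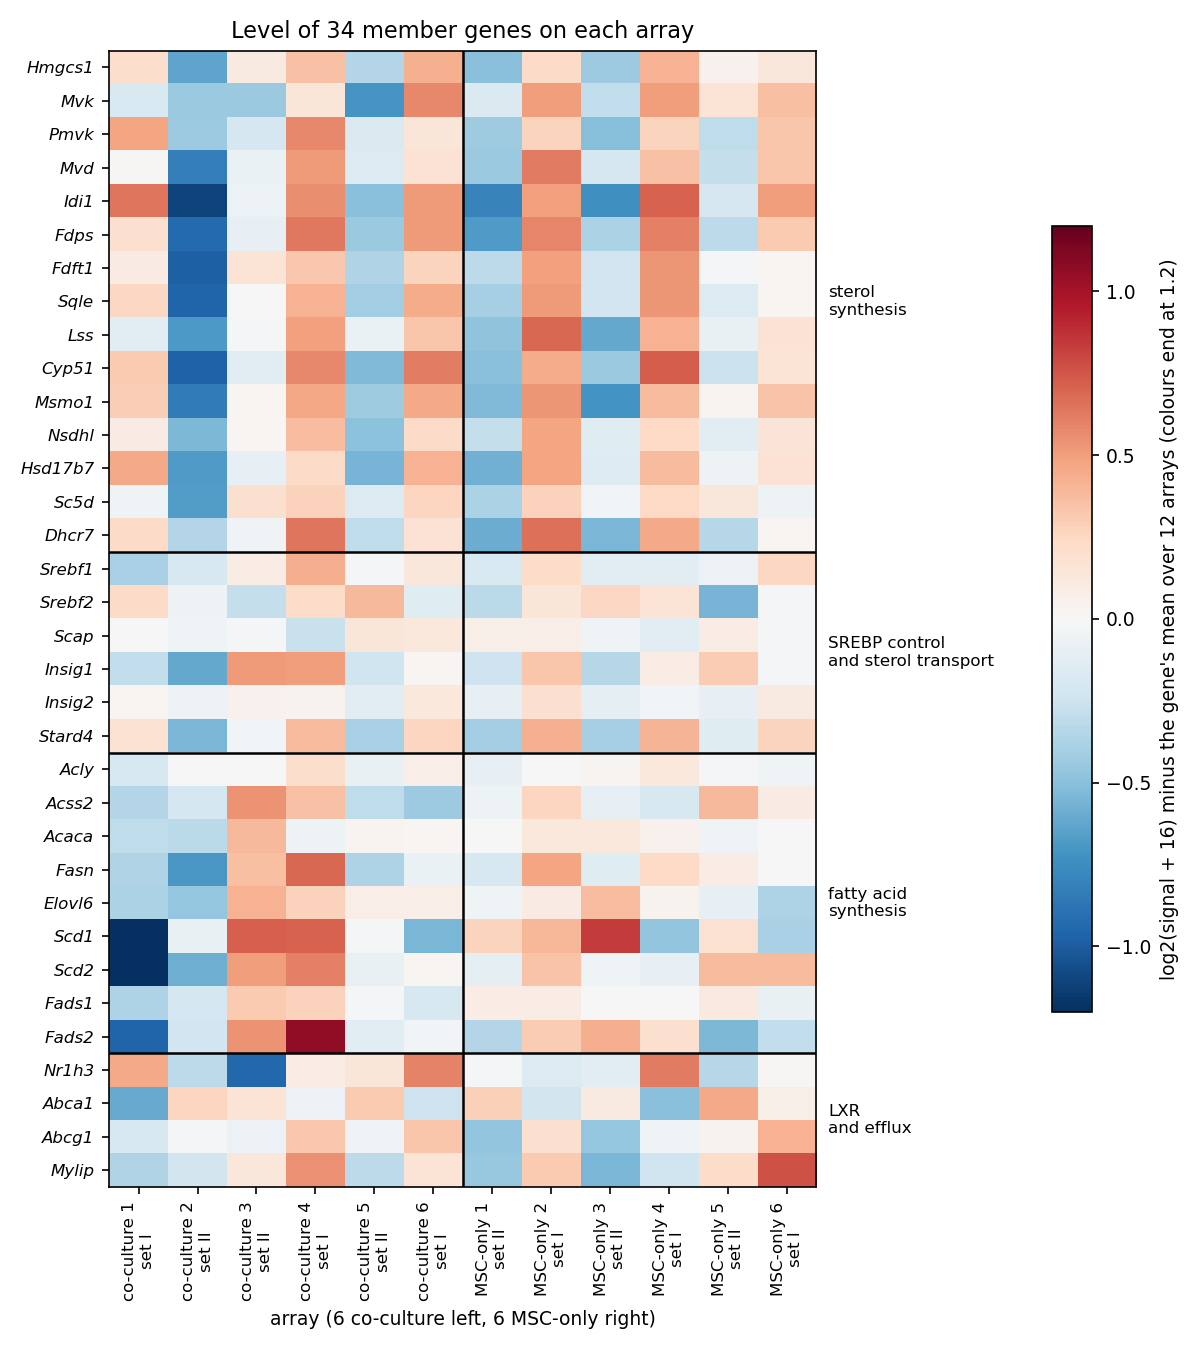
Level of the 34 member genes (rows, by role) on each of the 12 arrays (columns, 6 co-culture left and 6 MSC-only right, with the array set under each name), as log2(signal + 16) minus the gene's mean over all arrays; red is above and blue below that mean. The sterol synthesis rows are blue together in co-culture 2 and 5 and MSC-only 1 and 3, while several fatty acid synthesis rows are darkest blue in co-culture 1.

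Between co-culture and MSC-only, 0 of the 80 member probe sets passed limma's adjusted p of 0.05. Over all 45037 probe sets 2 passed, which is 0.00444%. Among the members the adjusted p was 0.999981 for the lowest. At an unadjusted p under 0.05, 0 members were higher and 0 lower in co-culture, against 2.81% of all probe sets higher and 1.55% lower. In 0 of the 80 did the 6 co-culture and 6 MSC-only arrays fail to overlap, against 0.198% of all probe sets. The median log2 difference over the 34 genes, co-culture minus MSC-only, was -0.04, with 12 genes above 0 and 22 below, while the median over all 18193 genes was 0.01. These counts do not show that the levels were equal: the 95% interval of a member's difference reached 0.80 log2 units to either side of it in the widest case and 0.47 in the median case. The uneven Xist signal given above bears on this comparison too.

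Hmgcs1, which encodes the enzyme that makes HMG-CoA, and Msmo1 are given in full because their probe sets had the highest signals of the role, which does not rank the transcripts. Hmgcs1 read 12509, 6979.7, 11651.5, 13857, 8479.9 and 14569 in co-cultures 1 to 6, and 7668, 12728.5, 7983.5, 14431.5, 11209.7 and 11869 in MSC-only cultures 1 to 6. Both groups thus ran from about the same low to about the same high level. The means were 11341 ± 3014 in co-culture and 10982 ± 2674 in MSC-only (SD, n = 6 each), a log2 difference of 0.04 (SE 0.22).

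Msmo1, the methyl sterol oxidase that acts after lanosterol, read 9102, 4163, 7542, 10238, 5540.1 and 10197 in co-cultures 1 to 6, and 5132, 10736, 4519, 9659, 7613 and 9443 in MSC-only cultures 1 to 6. Co-culture 2 and 5 and MSC-only 1 and 3 were again the low arrays. The means were 7797 ± 2521 in co-culture and 7850.3 ± 2556 in MSC-only (SD, n = 6 each), a log2 difference of -0.01 (SE 0.28). Idi1, the isomerase of the isoprenoid building block, had the widest range of the 15 sterol synthesis genes. It read 4526, 1327, 2747, 4256, 2036 and 4129.8 in co-cultures 1 to 6, and 1655, 4080.3, 1727.5, 4730.3, 2504 and 4096 in MSC-only cultures 1 to 6. Its highest array was 3.56-fold its lowest, while its log2 difference between the groups was 0.01 (SE 0.36).

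Over the 15 sterol synthesis genes the log2 difference of co-culture minus MSC-only ran from -0.35 to 0.13, with a median of -0.05, and 4 genes were above 0 and 11 below. Mevalonate kinase, Mvk, stood at -0.35 (SE 0.22, 95% interval -0.84 to 0.13). It read 159.8, 131, 130.0, 204, 106 and 281 in co-cultures 1 to 6, and 161, 266, 146, 267, 208 and 241 in MSC-only cultures 1 to 6. Co-cultures 2, 3 and 5 lay below all MSC-only cultures and co-culture 6 above all of them, so the groups overlapped in part. With the array set as a block, its unadjusted p was 0.021 and its adjusted p 0.92 by limma. The squalene-forming Fdft1 stood at -0.16 (SE 0.23) and phosphomevalonate kinase, Pmvk, at 0.13 (SE 0.22). The group accounted for a median of 0.97% of the variance of a sterol synthesis gene over the 12 arrays, against 3.83% for the median gene of the table.

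The control genes differed less. Insig1, which retains SREBP precursors and is itself a target of SREBP, read 3604, 2898, 6317, 6274, 3741.5 and 4489.5 in co-cultures 1 to 6, and 3724, 5591, 3489.5, 4713, 5473 and 4379.9 in MSC-only cultures 1 to 6. Its means were 4554 ± 1440.3 in co-culture and 4562 ± 872 in MSC-only (SD, n = 6 each), and its log2 difference was -0.04 (SE 0.21). Srebf1 read 1223, 1402, 1715, 2174, 1576 and 1766 in co-cultures 1 to 6, and 1415, 1876, 1465, 1466, 1531 and 1909 in MSC-only cultures 1 to 6, a log2 difference of 0.02 (SE 0.14). Srebf2, at 0.11 (SE 0.17), Scap, at -0.02 (SE 0.09), Insig2, at 0.01 (SE 0.09), and the sterol carrier Stard4, at -0.05 (SE 0.21), completed the list. The median of the 6 genes was -0.00.

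Among the fatty acid synthesis genes, Scd2, a desaturase that makes monounsaturated fatty acids, and Acly are given in full on the same ground. Scd2 read 5323, 8747, 18618, 19988, 12366.5 and 13373 in co-cultures 1 to 6, and 12178.5, 16676, 12706, 12299, 17124 and 17160.3 in MSC-only cultures 1 to 6. The co-cultures spread to both sides of the MSC-only cultures, with 2 arrays below and 2 above all of them. The means were 13069 ± 5620.1 in co-culture and 14691 ± 2527 in MSC-only (SD, n = 6 each), and the log2 difference was -0.28 (SE 0.28). Its neighbour in function Scd1 read 225, 663, 1174, 1169, 696 and 479.5 in co-cultures 1 to 6, and 857, 939, 1278, 506, 807 and 539 in MSC-only cultures 1 to 6, a log2 difference of -0.28 (SE 0.37). Both were lowest in co-culture 1, where Scd1 was 5.69-fold below its highest array, MSC-only 3.

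Acly, which makes cytosolic acetyl-CoA from citrate, was the steadiest of the 9 genes. It read 4073, 4643, 4651, 5410.1, 4368 and 4929 in co-cultures 1 to 6, and 4343, 4687, 4750.0, 5070.1, 4625 and 4484 in MSC-only cultures 1 to 6. Its log2 difference was 0.00 (SE 0.09). Fatty acid synthase, Fasn, stood at -0.15 (SE 0.22), acetyl-CoA carboxylase, Acaca, at -0.08 (SE 0.12), the acetyl-CoA synthetase Acss2 at -0.14 (SE 0.18), the elongase Elovl6 at 0.00 (SE 0.17), and the desaturases Fads1 and Fads2 at -0.07 (SE 0.13) and 0.09 (SE 0.30). The median over the 9 genes was -0.08, with 3 above 0 and 6 below.

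Of the LXR and efflux genes, Abca1, the transporter that hands cholesterol to apolipoproteins, read 18052, 32822, 30689, 26156, 34085 and 23175 in co-cultures 1 to 6, and 33558, 23566, 29653, 19347, 37597 and 28889.8 in MSC-only cultures 1 to 6. Its means were 27496 ± 6191 in co-culture and 28768.5 ± 6596 in MSC-only (SD, n = 6 each), a log2 difference of -0.07 (SE 0.19). Mylip read 4788.5, 5279, 6770.4, 8993, 4954 and 6911 in co-cultures 1 to 6, and 4491, 7655, 4214, 5224, 7162 and 10454 in MSC-only cultures 1 to 6, a log2 difference of -0.02 (SE 0.24). Abcg1, the exporter to high-density lipoprotein, stood at 0.11 (SE 0.17) and Nr1h3, which encodes LXRα, at 0.01 (SE 0.25). All 4 genes overlapped between the groups.

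**Figure D2:**
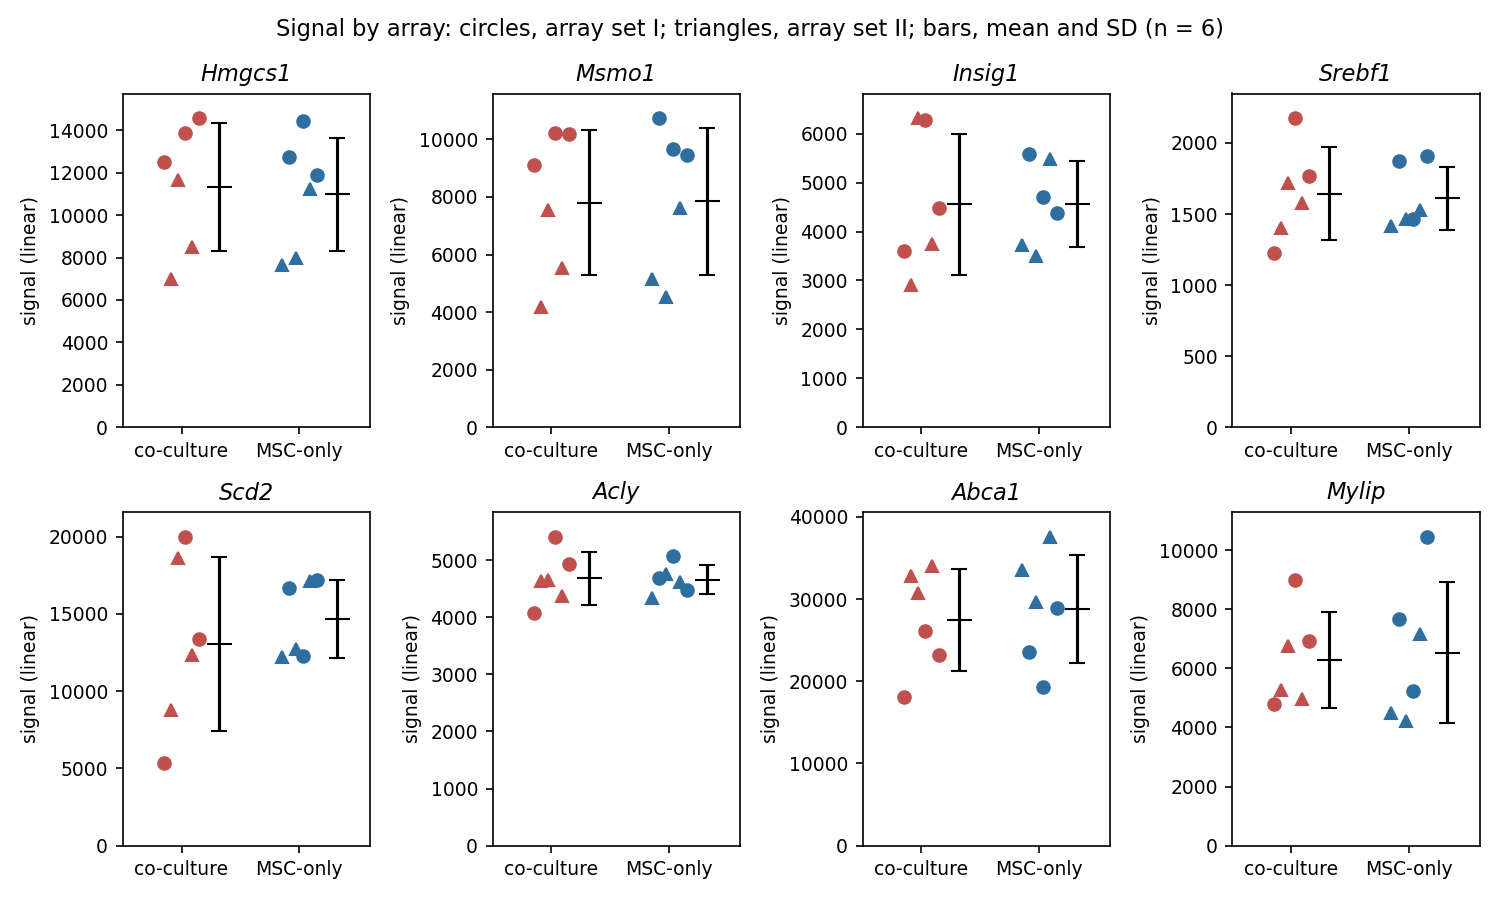
Linear signal of the 2 genes of each role whose probe sets had the highest signals, on each array, co-culture left and MSC-only right in each panel; circles are arrays of set I, triangles arrays of set II, and the bars beside them give the mean and SD (n = 6). The groups overlap in all 8 panels, and in Hmgcs1 and Msmo1 all 6 circles lie above all 6 triangles.

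**Figure D3:**
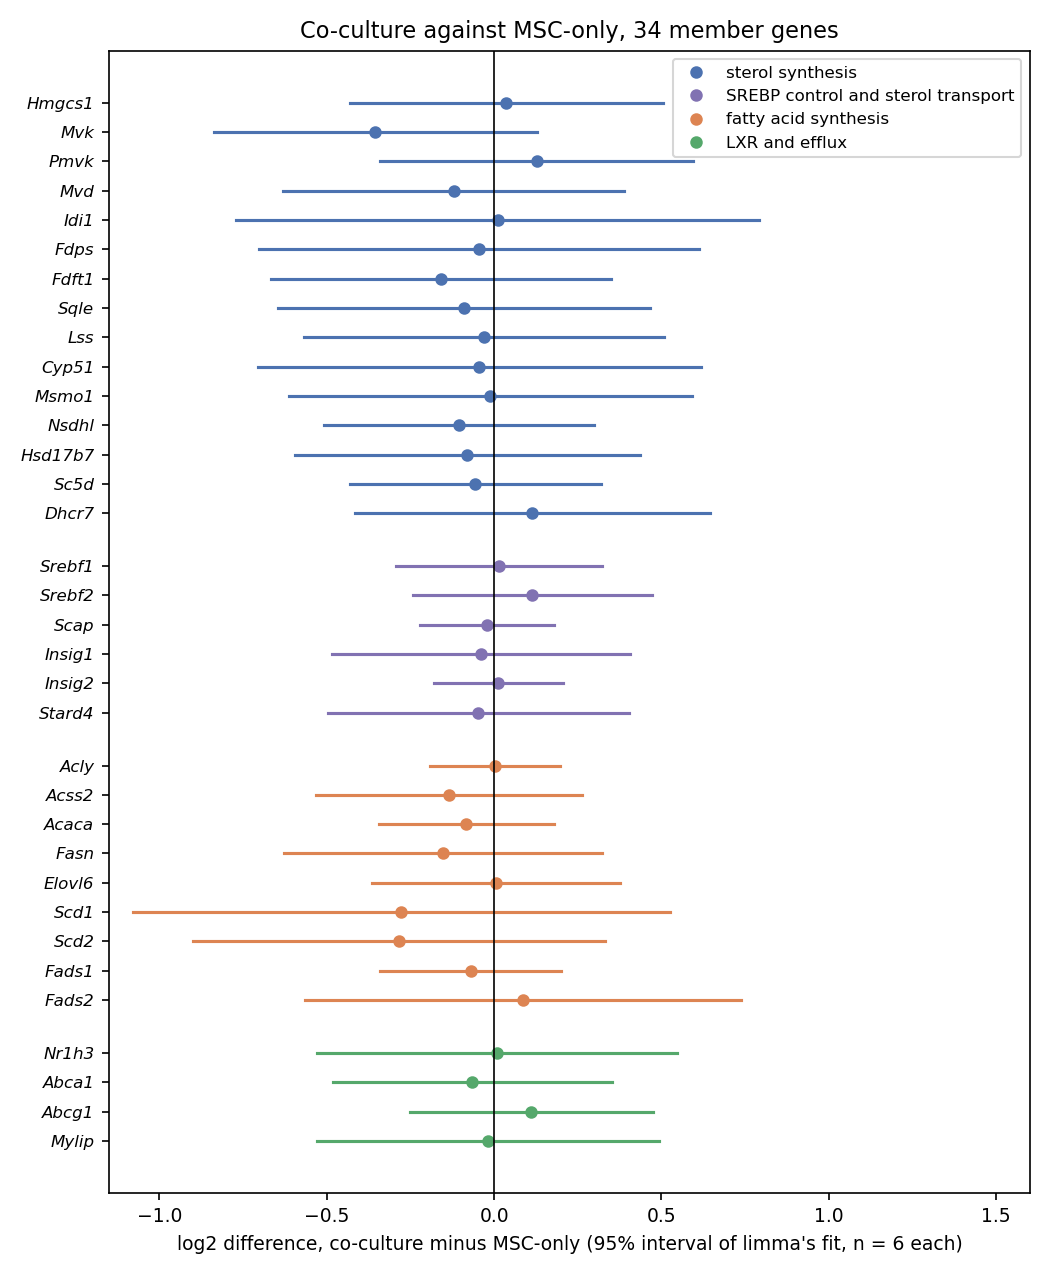
Log2 difference of co-culture minus MSC-only (x axis) for the 34 member genes (y axis, coloured by role), with limma's 95% interval (n = 6 each). All 34 intervals include 0, and the point farthest from 0 is Mvk at -0.35.

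Without the arrays numbered 3 and 4, which leaves 4 against 4, the fatty acid synthesis genes moved furthest of the 4 roles. In these 8 arrays the groups also separate on Xist and Eif2s3y, as given above, so sex or source and culture cannot be told apart. All 9 fatty acid synthesis genes were lower in co-culture, with a median log2 difference of -0.25, against 0.02 over all genes. The other roles leaned the same way. Lower in co-culture were 13 of 15 sterol synthesis genes (median -0.15), 5 of 6 control genes (-0.10) and 3 of 4 LXR and efflux genes (-0.12). Over all genes 8424 of 18193 were lower. The sterol synthesis genes moved together from array to array, as did the fatty acid synthesis genes, so their counts are not of separate observations. Of the 25 fatty acid synthesis probe sets, 6 had an unadjusted p by limma under 0.05 on the lower side, against 2.83% of all probe sets. They belong to Acss2, Scd2, Fasn and Fads2 only, and probe sets of the same gene are not separate observations. The one of Fads2 was its dimmest, at -1.06 (SE 0.24), while the brightest of Fads2 stood at -0.11 (SE 0.26). In the same 8 arrays Scd2 stood at -0.74 (SE 0.29), Acss2 at -0.50 (SE 0.13) and Fasn at -0.47 (SE 0.19). Their adjusted p-values by limma were 0.71, 0.53 and 0.71, and 0 of the 80 member probe sets passed 0.05. In the full comparison these 3 genes stood at -0.28, -0.14 and -0.15, and co-culture 3 and 4, which hold the 2 highest values of Scd2, Fasn and Scd1 among the co-cultures, are among the arrays left out. Outside this role, 1 probe set passed the unadjusted threshold, a dim one of Hsd17b7 that was higher in co-culture, against 4.02% of all probe sets on that side.

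Probe sets of 1 gene disagreed in direction by more than 0.3 log2 units for 8 members: Acly, Acss2, Elovl6, Fads2, Fdft1, Hsd17b7, Sc5d and Scd2. For Hsd17b7, a reductase of late sterol synthesis, the brightest probe set read 1195.1, 535.5, 808.3, 1019.3, 586.6 and 1165.8 in co-cultures 1 to 6, and 579.0, 1211.1, 777.0, 1135.1, 833.7 and 983.1 in MSC-only cultures 1 to 6, and stood at -0.08 (SE 0.24). The dimmest read 60.1, 47.3, 21.4, 40.2, 35.2 and 38.1 in co-cultures 1 to 6, and 32.1, 8.6, 31.7, 34, 33.2 and 16.8 in MSC-only cultures 1 to 6, and stood at 0.44 (SE 0.21). Its unadjusted p by limma of 0.058 was the lowest of all 80 member probe sets, and its adjusted p was 0.999981.

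The brightest probe set of Fdft1 read 2250.2, 1060.7, 2361.8, 2632.3, 1637.5 and 2529.3 in co-cultures 1 to 6, and 1689.6, 2966.8, 1793.8, 3033.6, 2061.6 and 2135.5 in MSC-only cultures 1 to 6, and stood at -0.16 (SE 0.23). A dim one read 66.6, 17.9, 15.7, 45.5, 38.5 and 64.8 in co-cultures 1 to 6, and 11.1, 21.3, 4.1, 5.9, 52.8 and 52.9 in MSC-only cultures 1 to 6, and stood at 0.59 (SE 0.37). The groups overlapped in both. For Sc5d, the desaturase near the end of the pathway, the brightest read 2778.7, 1807.8, 3294.3, 3502.1, 2573.0 and 3452.0 in co-cultures 1 to 6, and 2208.2, 3496.6, 2812.9, 3416.1, 3165.4 and 2767.8 in MSC-only cultures 1 to 6, and stood at -0.06 (SE 0.17). Its dimmest read 79.1, 93.6, 99.7, 82.3, 107.0 and 74.4 in co-cultures 1 to 6, and 72.3, 86.1, 67.7, 15.7, 93.9 and 94.2 in MSC-only cultures 1 to 6, and stood at 0.36 (SE 0.27). The low value of that dim probe set in MSC-only 4 lay far below its other 11 values.

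Among the fatty acid synthesis genes, the brightest probe set of Acss2 read 115.4, 128.7, 227.5, 197.3, 119.7 and 107.7 in co-cultures 1 to 6, and 144.9, 184.5, 140.3, 130.7, 203.4 and 163.6 in MSC-only cultures 1 to 6. The second read 74.0, 64.2, 138.8, 136.6, 105.3 and 68.9 in co-cultures 1 to 6, and 117.2, 142.7, 86.3, 124.9, 140.6 and 108.4 in MSC-only cultures 1 to 6, and stood at -0.29 (SE 0.19), while the dimmest read 19.4, 3.1, 24.7, 10.7, 22.0 and 29.9 in co-cultures 1 to 6, and 31.0, 11.9, 6.4, 6.5, 21.5 and 16.6 in MSC-only cultures 1 to 6, and stood at 0.11 (SE 0.24). Among the co-cultures, co-culture 3 and 4 were highest in both of the brighter probe sets and not in the dimmest. The brightest of Elovl6 read 254.0, 238.0, 453.6, 409.3, 355.3 and 355.7 in co-cultures 1 to 6, and 323.2, 358.8, 436.6, 346.6, 311.8 and 255.2 in MSC-only cultures 1 to 6. The second stood at -0.13 (SE 0.13), and the dimmest, which read 59.5, 39.5, 47.2, 57.8, 35.2 and 45.4 in co-cultures 1 to 6, and 57.3, 50.4, 50.2, 56.1, 10.8 and 12.7 in MSC-only cultures 1 to 6, at 0.30 (SE 0.27).

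The brightest of Fads2 read 69.3, 125.2, 225.5, 330.6, 136.4 and 146.4 in co-cultures 1 to 6, and 114.0, 188.6, 208.8, 173.0, 97.9 and 118.7 in MSC-only cultures 1 to 6, with co-culture 4 above and co-culture 1 below all other arrays. The dimmest read 3.0, 10.1, 39.0, 70.5, 22.0 and 18.0 in co-cultures 1 to 6, and 34.3, 57.9, 3.4, 46.7, 49.0 and 33.7 in MSC-only cultures 1 to 6, and stood at -0.38 (SE 0.39). Further probe sets of Acly ran from -0.17, with a mean of 631 in co-culture and 715 in MSC-only, to 0.25, with means of 11.4 and 6.82 in the same order. The second of Scd2 stood at -0.43 (SE 0.38) and averaged 1046 in co-culture and 1183 in MSC-only, and the third stood at 0.11 (SE 0.27) and averaged 122 in co-culture and 104 in MSC-only.

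While no member passed the adjusted threshold between the groups, the sterol synthesis genes moved together from array to array. After the mean of each group was subtracted, all 105 pairs of the 15 genes correlated above 0 over the 12 arrays, with a median Pearson r of 0.89 (0.60 to 0.98), and 93 pairs were above 0.8. Over all pairs of genes of the table the median r was 0.005, and 0.71% of pairs exceeded 0.8. Co-culture 2 was the lowest of all 12 arrays for 12 of the 15 genes and among the 4 lowest for all 15. MSC-only 1 and MSC-only 3 were each among the 4 lowest for 14 genes, and co-culture 5 for 11. At the other end, MSC-only 4 was among the 4 highest for 14 genes, MSC-only 2 and co-culture 4 for 13 and co-culture 6 for 12. The ratio of the highest to the lowest array was between 1.94 and 3.56 for each gene. These correlations describe 12 arrays of a single experiment, and no p was computed.

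A part of this common movement lay between the 2 array sets. In 11 of the 15 genes all 6 arrays of set I were above all 6 of set II, against 4.16% of all genes of the table. Correlations within 1 set, here and below, are over its 6 arrays with no group mean subtracted, so they also hold any group difference. Within set I the median r of the 105 pairs was 0.45, with 20 pairs below 0, and within set II it was 0.76, with 4 pairs below 0. With the means of both set and group subtracted, the median over the 12 arrays was 0.72, 104 of the 105 pairs remained above 0, and 33 were above 0.8, while the share of all gene pairs above 0.8 was 0.704%. Not all enzymes kept their place. Sc5d, Fdps, Fdft1, Sqle, Cyp51 and Hmgcs1 correlated with the mean of the other sterol synthesis genes at 0.97, 0.96, 0.96, 0.93, 0.92 and 0.91 after this subtraction. Mvk and Pmvk, which act next to each other on mevalonate, stood at 0.31 and 0.34 there, against 0.82 and 0.88 with the group means alone subtracted. The remaining enzymes stood at 0.69 (Dhcr7) to 0.87 (Msmo1) after the subtraction of both means. Within set I alone, Idi1 stood at -0.06 and Hsd17b7 at 0.18, against 0.97 and 0.85 within set II.

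Array-wide values moved with the sterol synthesis level too. The mean of the 15 genes correlated with the highest signal on the array at r = -0.91 (rho -0.86, and r -0.92 without the 2 arrays farthest from the median sterol level) and with the median signal at r = -0.78 (rho -0.80, and -0.65). With set and group means subtracted, r was -0.70 for the highest signal and -0.30 for the median signal. Of 18159 genes that are not members, 569 (3.13%) correlated with the sterol mean above 0.8, and 821 (4.52%) below -0.8. Those 569 genes had a median ratio of highest to lowest array of 1.64, against 2.57 for the sterol synthesis genes, both taken after 16 was added to the signal. With set and group means subtracted, 130 non-members (0.716%) were above 0.8, and 35 of the 569 were among them. The part of the array-wide differences in the sterol result was not tested.

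The 10 non-members whose pattern over the arrays was most like the sterol mean were Cyb5b, Txnl4a, Oser1, Dock10, Pcyt1a, Fnbp1, Dennd4c, Dock4, Mtmr14 and Frmd8, with r of 0.97 for Cyb5b and 0.95 for Frmd8 over 12 arrays, with group means subtracted. Of the further genes of the sterol pathway that were measured, Ebp, the sterol isomerase, followed the sterol mean at r = 0.94, Tm7sf2, a sterol reductase, at 0.87 and Lbr, which has the same reductase activity, at 0.80. After set and group means were subtracted, the 3 genes stood at 0.66, 0.86 and 0.76, and Ebp was at -0.70 within set I and 0.83 within set II. Ggps1, which makes a longer isoprenoid, and Idi2, at signals of at most 26.1, did not follow, with r of -0.30 and -0.27, and 0.15 and -0.50 after the same subtraction. The SREBP proteases Mbtps1 and Mbtps2 stood at -0.16 and 0.04 with group means subtracted, and at 0.27 and 0.67 with set means subtracted as well.

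Cell type markers moved with the sterol level in both directions. Among macrophage genes, Lyz2 correlated with the sterol mean at r = -0.89, Csf1r at -0.83 and Fcer1g at -0.83, while Adgre1 stood at 0.83 and Itgam at 0.81, and the mean log2 level of the 13 markers at -0.21. Subtracting set and group means left Lyz2 at -0.70, Csf1r at -0.47, Fcer1g at -0.61, Adgre1 at 0.07 and Itgam at -0.07. The mean level of the stromal markers correlated at -0.65 with group means subtracted and at 0.45 with set and group means subtracted. The part of these markers in the sterol result was not tested.

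Of the control genes, Stard4, a cytosolic sterol carrier that SREBP-2 induces, followed the sterol synthesis genes closely. It read 1246, 742, 1071, 1423, 833 and 1307 in co-cultures 1 to 6, and 822, 1470.0, 823, 1450.4, 984 and 1320.4 in MSC-only cultures 1 to 6. Its r with the sterol mean was 0.99 (rho 0.99, and 0.99 without the 2 farthest arrays), 0.89 within set I and 0.96 within set II. Insig1 stood at 0.67 over the 12 arrays (rho 0.67, and 0.47 without the 2 farthest), but at 0.81 within set I, 0.95 within set II and 0.92 with set and group means subtracted. Insig2 went the other way, with 0.77 over the 12 arrays and 0.36 with set and group means subtracted. The SREBP genes themselves were further off: Srebf1 stood at 0.54 and 0.46, Srebf2 at 0.22 and -0.26, and Scap at -0.27 and 0.00. The signal of Srebf2 was 408 to 661 in co-cultures and 335 to 602 in MSC-only cultures, with its highest array 1.97-fold its lowest.

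**Figure D4:**
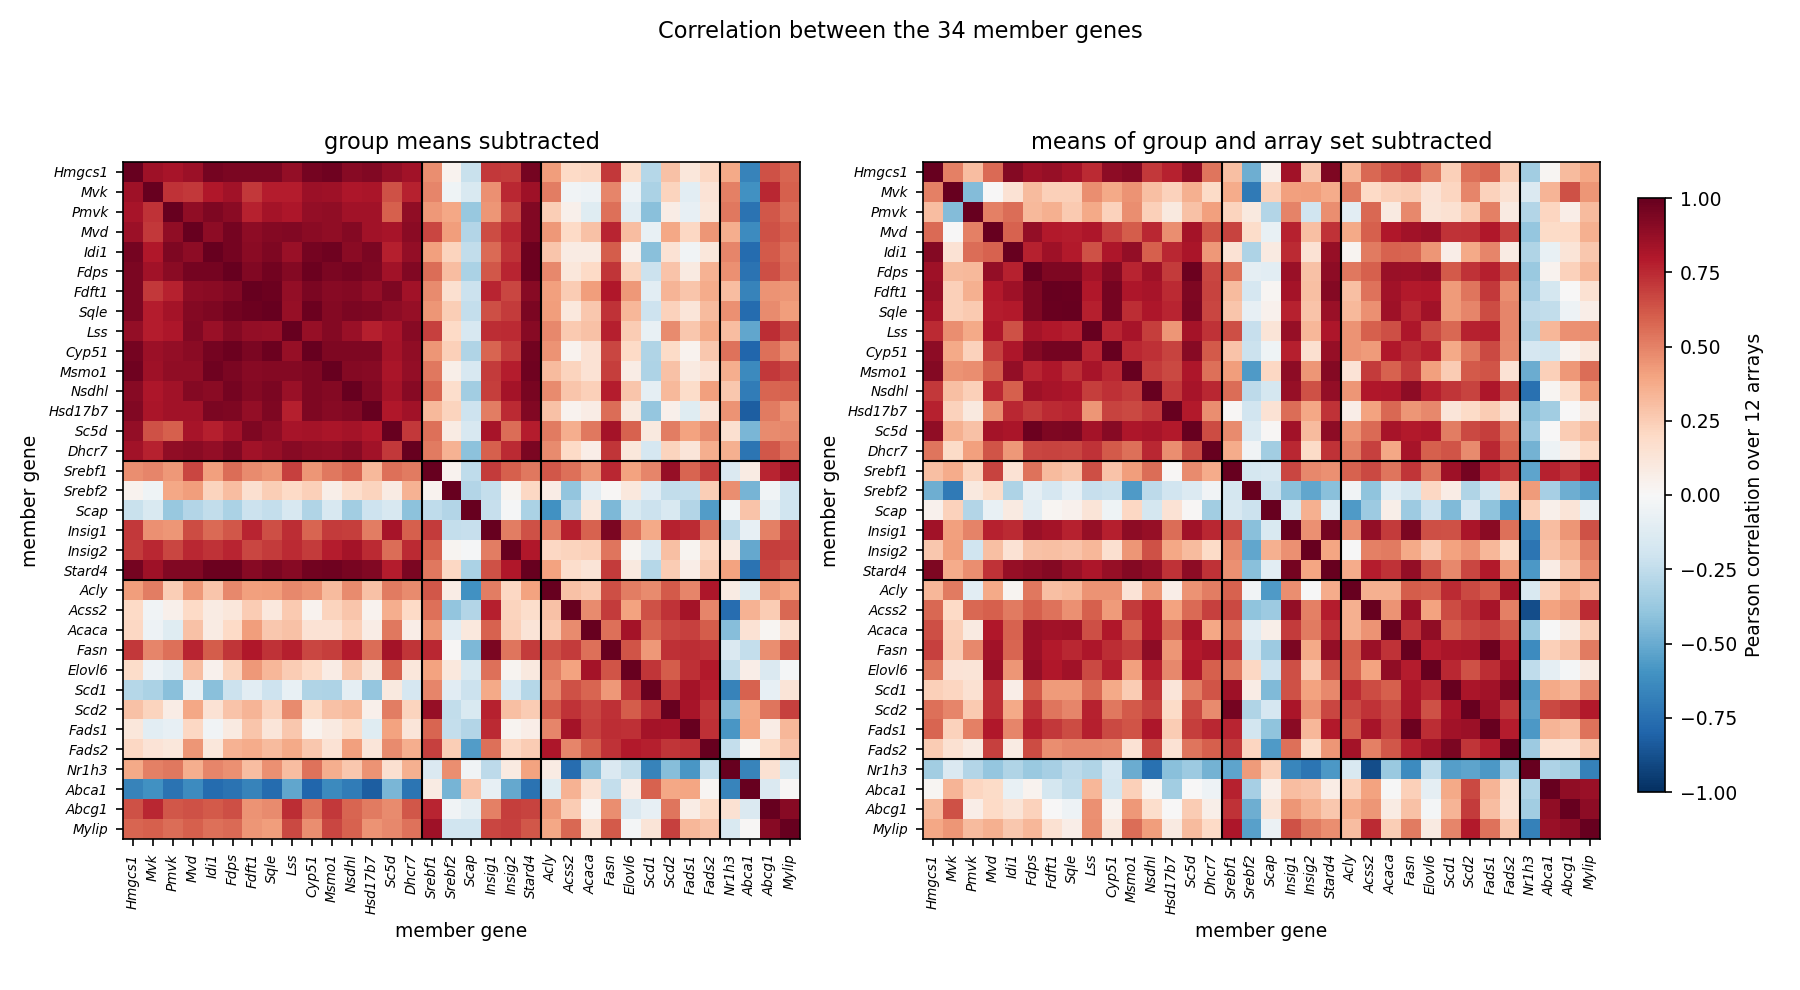
Pearson correlation over the 12 arrays between the 34 member genes (both axes, in the order of the roles, black lines between roles), with group means subtracted on the left and with the means of group and array set subtracted on the right; red is positive and blue negative. The sterol synthesis block is red in both panels (median r 0.89 and 0.72), the block of sterol with fatty acid synthesis is redder on the right (0.23 and 0.56), and the Abca1 row is blue against sterol synthesis on the left but not on the right.

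The fatty acid synthesis genes formed a second group. Their 36 pairs were all above 0, with a median r of 0.68 (0.26 to 0.83), and with set and group means subtracted the median was 0.73. Their low array was co-culture 1, among the 4 lowest for all 9 genes, and their high arrays were co-culture 3 and co-culture 4, each among the 4 highest for 8 genes. Of these arrays, co-culture 1 was above the middle for sterol synthesis and co-culture 3 near it. Over all 12 arrays the 135 pairs of a sterol with a fatty acid synthesis gene had a median r of 0.23. Within the sets the medians were 0.58 in set I and 0.65 in set II, and with set and group means subtracted 134 of the 135 pairs were above 0. Within the role the median r was 0.78 in the 6 co-cultures and 0.23 in the 6 MSC-only cultures, a difference that was not tested, and it was 0.51 without the arrays numbered 3 and 4.

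Fasn stood between both groups of enzymes. It read 871, 686, 1448, 1818, 868 and 1058 in co-cultures 1 to 6, and 982, 1565, 1013, 1324, 1191.5 and 1123 in MSC-only cultures 1 to 6. Its r was 0.74 with the sterol mean (rho 0.73, and 0.59 without the 2 farthest arrays) and 0.78 with the other fatty acid synthesis genes, and 0.94 with Insig1 (rho 0.92). Once set and group means were subtracted, Fasn stood at 0.98 with Fads1 and at 0.94 with Insig1. Scd1 stood at -0.23 with the sterol mean over all arrays, and at 0.74 within set I and 0.53 within set II. Scd1 with Pdgfra, a stromal receptor, stood at r = 0.70 (rho 0.85) over the 12 arrays, and Scd2 with Pdgfra at 0.63. The part of the number of stromal cells in these results was not tested.

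The LXR and efflux genes did not move as 1 group over the 12 arrays, with a median r of -0.07 over their 6 pairs. Abcg1 and Mylip correlated at 0.91 (rho 0.90), Abca1 with Abcg1 at -0.15 and Abca1 with Mylip at 0.01. Abca1 stood at -0.73 with the sterol mean (rho -0.75, and -0.69 without the 2 farthest arrays), while Abcg1 stood at 0.64, Mylip at 0.58 and Nr1h3 at 0.42, and 45 of the 60 pairs of a sterol synthesis gene with a gene of this role were above 0. Within the array sets r was 0.03 in set I and 0.09 in set II for Abca1. After set and group means were subtracted, Abcg1 stood at 0.24, Mylip at 0.36 and Nr1h3 at -0.43. With set and group means subtracted, Abca1 joined the other targets, at 0.89 with Abcg1 and 0.86 with Mylip, and Abcg1 with Mylip stood at 0.89. With group means alone subtracted, Abca1 stood at 0.80 (rho 0.87) with Apoe, another LXR target, and at 0.79 (rho 0.78) with the macrophage receptor Csf1r. Apoe was the only further LXR gene set against Abca1. Neither pair was computed with set means subtracted. Abca1 itself read at most 28889.8 in set I and at least 29652.8 in set II, so the part of the array sets in these pairs was not tested.

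Srebf1, a gene that LXR turns on, was closer to Mylip and Abcg1 than to the sterol mean, but not to Abca1. With group means subtracted it correlated with Mylip at 0.84, Abcg1 at 0.76, Abca1 at 0.08 and the sterol mean at 0.54. It also stood at 0.87 with Scd2, 0.75 with Fasn and 0.70 with Insig1. With set and group means subtracted, Srebf1 stood at 0.81 with Mylip, 0.72 with Abcg1, 0.77 with Abca1 and 0.46 with the sterol mean. After the same subtraction it stood at 0.95 with Scd2, 0.71 with Fasn and 0.67 with Insig1. The receptor gene Nr1h3 did not follow: it read 361.5, 206, 127, 276, 289 and 399.5 in co-cultures 1 to 6, and 255, 229.8, 235, 408, 201 and 261 in MSC-only cultures 1 to 6, and stood at -0.31 with the mean of the other 3 genes, and at -0.49 with set and group means subtracted. Whether any of these correlations differ from each other was not tested.

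**Figure D5:**
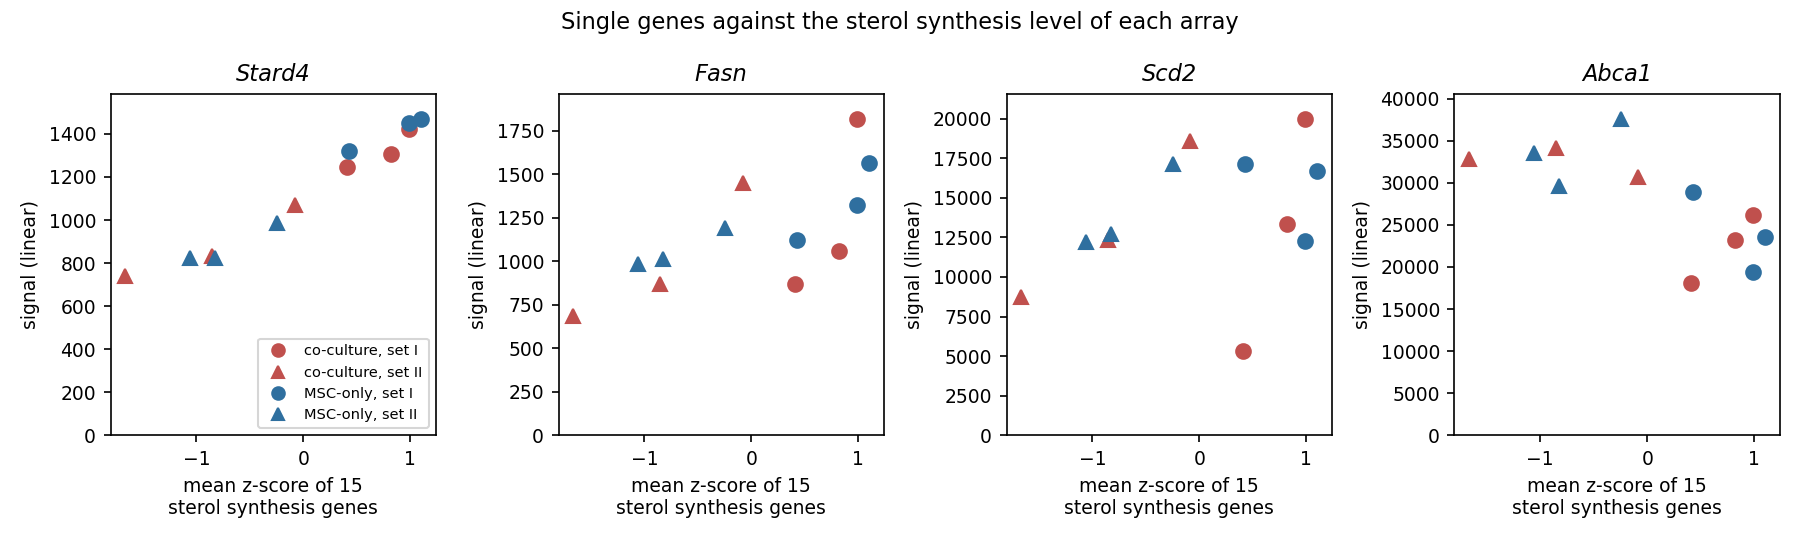
Linear signal of 4 member genes (y axes) on each array against the mean z-score of the 15 sterol synthesis genes (x axes); red is co-culture, blue MSC-only, circles are array set I and triangles set II. Stard4 follows the sterol level in a single line (r 0.99), and Fasn runs along it within each set. Scd2 runs along it in set II (r 0.99). In set I the r of Scd2, 0.55, includes the low co-culture 1, and the other circles show no clear trend. Abca1 is lower in the circles than in the triangles with no trend within either.

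Other probe sets of the same genes followed the sterol level in part. All 4 further probe sets of Hmgcs1 with a mean signal above 100 correlated with the mean of the other sterol synthesis genes at 0.87 to 0.98, the second of Idi1 at 0.98, and those of Stard4 at 0.93 and 0.95. The second probe set of Sc5d stood at 0.40, against 0.84 for the one used, the 2 further ones of Abca1 at -0.42 and -0.47, and the next 2 of Acly at 0.83 and -0.27, against 0.44 for the one used.

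The lists of related genes behaved as the members did between the groups. Of the 7 further sterol genes measured, 15 of fatty acid synthesis, 13 of LXR and lipoproteins and 6 of sterol storage and oxidation, 0 probe sets passed the adjusted threshold. Their median log2 differences were -0.01, -0.06, 0.01 and 0.09. Mlxipl, which encodes the carbohydrate-responsive factor ChREBP, had the lowest unadjusted p of these lists. It read 42.1, 10.6, 20, 43.4, 56.2 and 24.3 in co-cultures 1 to 6, and 2.2, 5.4, 5.2, 26.7, 7.2 and 5.1 in MSC-only cultures 1 to 6, a log2 difference of 0.97 (SE 0.26) with an adjusted p of 0.83 by limma, at signals below the median of every array.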

How the data were processed

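The authors hybridized total RNA of 12 cultures to Affymetrix mouse arrays. The deposited signal of each probe set, from the array maker's operating software, is linear, and its mean after 2% was trimmed from each end was 496.6 to 497.3 on every array. A genome build is not given in the sources. Groups came from the labels. Values were taken as log2(signal + 16), which understates the change of dim probe sets, and compared with limma 3.58.1 in R 4.3.3 (no block, Benjamini-Hochberg adjustment over 45037 probe sets, threshold 0.05), after the script was tested on simulated data. Of the probe sets, 34945 carried 1 symbol, 932 several and 9160 none. Correlations (Python 3.11.15, numpy 2.4.6) used values with group means subtracted, and again with means of group and array set subtracted. Those within a single array set or a single group used values with no mean subtracted beforehand. The members, roles and lists were chosen with earlier results of these data known. Values of every array were to be given for the 2 brightest genes of each role and for members with an unadjusted p under 0.05, groups that do not overlap or probe sets that disagree by over 0.3 log2 units. Idi1, Mvk, Stard4, Fasn, Scd1, Nr1h3 and Mlxipl were added after their values were seen, as were the array sets. The number of arrays limits the precision.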

Additional observations from a re-analysis of the deposited data

Results flagged for a closer look

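In 68 groups of 6 arrays (34 genes in each of the 2 culture types), 1 value stood apart from the other 5 of its group on the log2 scale, with a gap to the nearest array that passed Dixon's critical value for 6 samples. Chance flags about 1 in 20 groups, so a single flag is no pattern. Nr1h3, the LXRα gene, read 408 in MSC-only 4, against 261 in the next highest and 201 in the lowest MSC-only array, a gap of 0.636 of the range. MSC-only 4 is one of the 4 arrays with Y-linked signal near background.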

How the results depend on the processing

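The count of 0 member probe sets passing the adjusted threshold was the same under all 10 alternatives and with each array left out. The lowest adjusted p of a member by limma was 0.49, without the arrays numbered 3 and 4 (a subset in which Xist and Eif2s3y separate the groups). There 7 of the 80 had an unadjusted p under 0.05, against 3085 of all 45037 probe sets. With the array set as a block 1 of the 80 had, against 2338 of all 45037. Over all probe sets, 2 passed in the comparison as reported, 0 with limma's trend and robust options, log2(signal + 64), the dim filter or the replicate block, 1 with the array set as a block, log2(signal + 1), median centring, quantile normalization or the methods' unpaired test, 8 without the arrays numbered 3 and 4, and 0 to 4 with 1 array left out. The replicate numbers were not taken to pair the samples, although the arrays numbered 3 and 4 shared a low Y-linked signal in both groups: same-numbered arrays correlated at -0.16, -0.13, 0.12, 0.15, 0.10 and 0.15 in their deviations, and the replicate block changed no call of a member. Median centring lowered the share of all probe sets higher in co-culture to 43.8%, against 54.7%.

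The median differences of the 4 roles moved by less than their spread between arrays under every alternative: sterol synthesis -0.15 to -0.01, SREBP control -0.10 to 0.03, fatty acid synthesis -0.25 to -0.06 and LXR and efflux -0.12 to 0.04, and with 1 array left out -0.15 to 0.11, -0.03 to 0.06, -0.17 to -0.00 and -0.04 to 0.07. The sign turned under 1 or more of 11 alternatives for 20 of the 34 genes, whose reported differences were at most 0.16 in size.

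Median correlations within sterol synthesis, 0.89 as reported, were 0.45 within array set I, 0.76 within set II, 0.72 with set and group means subtracted and 0.87 to 0.91 with 1 array left out. For fatty acid synthesis, 0.68 as reported, they were 0.23 within MSC-only, 0.51 without the arrays numbered 3 and 4 and 0.58 to 0.71 with 1 array left out. For LXR and efflux, -0.07 as reported, they were 0.23 after quantile normalization, 0.22 within set I, 0.36 within set II, 0.28 with set and group means subtracted and -0.13 to 0.05 with 1 array left out. For sterol with fatty acid synthesis, 0.23 as reported, they were 0.58, 0.65 and 0.56 under the same 3 uses of the sets and 0.07 to 0.37 with 1 array left out. For sterol synthesis with LXR and efflux, 0.46 as reported, they were 0.0072, 0.036 and 0.062 under those uses, and 0.39 to 0.53 with 1 array left out. The array sets were chosen after seeing the data, and the cause of these shifts was not tested.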
